A study of Homo sapiens with 21 samples.

Results

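Transcripts of the molecular chaperones and of the proteasome were followed through the differentiation of human induced pluripotent stem cells (iPSCs) into cardiomyocytes (CMs) and in CMs without UBE2B. The members were chosen by gene name: the HSP70 genes (HSPA) with HSPH1, the HSP90 genes, the small heat shock protein genes (HSPB) with CRYAB, the DNAJ genes, the CCT genes with HSPD1 and HSPE1, BAG1 to BAG6, UNC45A and UNC45B, and the PSM genes of the proteasome. In all, 104 member genes with 196 transcripts had at least 1 transcript in the tables of significant transcripts, of 11851 genes and 21537 transcripts listed in those tables. A further 31 protein-coding genes that fit the same naming rule in the GENCODE annotation, among them HSPA8, DNAJB1 and PSMD1, had no listed transcript in any comparison, which shows only that no significant difference was found for them. By name, 43 member genes were listed in 1 of the 6 tables and HSPB8 alone was listed in all 6.

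PGP1 iPSCs, an established human line, were taken through mesoderm (M), cardiac mesoderm (CMes) and cardiac progenitors (CP) to CMs with CHIR99021, IWP4 and B-27, the CMs being purified with lactate once they beat. RNA-seq of poly-A RNA covered 3 wild-type libraries for each of 5 stages and 3 libraries of CMs of each of 2 homozygous knockout lines, UBE2B-/-1 and UBE2B-/-2, which were made by CRISPR/Cas9 in separate editing experiments and grown from single colonies. All 7 groups share the PGP1 background, each replicate was a plate that began differentiating on another occasion, and the UBE2B-/- CMs were taken from wells that did beat, which were a fraction of the wells. The deposited tables hold no value per library. Each value below is therefore a group mean of the estimated counts of a transcript, back-calculated on the scale of its own comparison from the natural logs after a pseudocount of 0.5, with the log2 difference, its standard error (SE) and, where given, the standard deviation (SD) between replicate libraries on the log2 scale, with 3 libraries per group. Depth per library is unknown here, and p-values measure the spread between plates of 1 cell line.

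A transcript was listed when the q-value of the Wald test was at most 0.05, and is described here as higher or lower in that case. It was called when the natural-log effect also reached 0.585, a fold change of 1.79. For a transcript with the median SE of the members, a q-value of 0.05 needed a log2 difference of 0.41 to 0.91, depending on the comparison, and transcripts with a smaller SE were listed at smaller differences, down to 0.29. These q-values rest on a normal distribution. With a t distribution on the few residual degrees of freedom, 6 calls at CP to CM (HSPB7, HSPB1, HSPB3, HSPB8 and 2 of UNC45B) were the only member calls left in the 6 comparisons. UBE2B, the edited gene, was higher in CMs than in CP in 4 transcripts, and in the knockout lines only the transcript ENST00000499038.2, whose coding sequence is not defined, was listed, with a log2 difference of −1.91 ± 0.53 (SE) in UBE2B-/-1. The RNA thus gives no check of the edit itself in UBE2B-/-2. As a check of the stages, all 16 cardiomyocyte marker genes were higher in CMs than in CP, their summed level going from 17904 to 705824 estimated counts, and 6 of 7 pluripotency markers were lower, with a sum of 36898 in CP and 594 in CMs. In such bulk RNA, fewer cells of a type and less RNA per cell cannot be told apart.

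Chaperones help other proteins reach and keep their fold. HSP70 proteins bind exposed hydrophobic stretches with the help of J proteins, which deliver clients and start ATP hydrolysis, and of BAG proteins, which release the nucleotide. HSP90 acts later on kinases, receptors and other clients. The ring-shaped chaperonins enclose their clients, CCT in the cytosol for actin and tubulin and HSPD1 with its lid HSPE1 in mitochondria. Small heat shock proteins hold unfolding proteins without ATP and are abundant in heart and skeletal muscle, where they bind the contractile apparatus, and UNC45B folds the head of muscle myosin while UNC45A serves the non-muscle myosins. Proteins that cannot be refolded are degraded by the proteasome, whose core particle (PSMA and PSMB) holds the proteolytic sites and whose regulatory particle (PSMC ATPases and PSMD subunits) unfolds ubiquitylated clients.

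The promoters of 6 members are shown because these genes either changed most in CMs or carry the motif their class is known for. The sequences are the 250 bases before the RefSeq start on GRCh38.p14, written 5′ to 3′ on the strand of the gene, with the motif in capitals. In HSPB3 and HSPB7 the capitals mark a MEF2 site, the element of muscle promoters, beginning 129 and 82 bases before the start.
HSPB3, chr5:54455449-54455698, plus strand: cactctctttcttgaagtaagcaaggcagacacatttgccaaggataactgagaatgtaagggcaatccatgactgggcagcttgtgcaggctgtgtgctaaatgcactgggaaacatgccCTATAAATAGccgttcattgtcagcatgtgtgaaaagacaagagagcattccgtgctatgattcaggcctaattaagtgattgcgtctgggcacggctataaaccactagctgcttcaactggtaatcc
HSPB7, chr1:16018044-16018293, minus strand: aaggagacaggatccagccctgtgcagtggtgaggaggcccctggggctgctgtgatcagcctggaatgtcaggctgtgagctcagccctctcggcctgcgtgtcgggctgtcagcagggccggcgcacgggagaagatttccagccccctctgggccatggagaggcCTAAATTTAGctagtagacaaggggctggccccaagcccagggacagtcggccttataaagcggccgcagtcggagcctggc
In HSPB8 and HSPB1 they mark a pair of heat shock units, GAANNTTC, beginning 88 and 182 bases before the start. A pair in the other arrangement, TTCNNGAA, was searched for as well, and each arrangement reads the same on both strands.
HSPB8, chr12:119178681-119178930, plus strand: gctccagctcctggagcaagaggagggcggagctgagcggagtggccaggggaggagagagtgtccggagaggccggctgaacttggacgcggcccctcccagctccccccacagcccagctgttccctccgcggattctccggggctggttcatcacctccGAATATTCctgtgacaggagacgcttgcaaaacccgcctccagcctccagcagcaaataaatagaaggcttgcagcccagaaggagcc
HSPB1, chr7:76302423-76302672, plus strand: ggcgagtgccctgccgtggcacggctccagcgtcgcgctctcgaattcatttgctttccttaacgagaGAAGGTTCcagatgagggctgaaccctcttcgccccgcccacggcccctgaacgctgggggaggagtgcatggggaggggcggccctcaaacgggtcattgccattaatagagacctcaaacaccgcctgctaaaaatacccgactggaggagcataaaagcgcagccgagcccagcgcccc
In HSPA5 and HSP90B1, the ER chaperones, they mark the ER stress element, which is CCAAT and CCACG with 9 bases between them on either strand. It begins 66 bases before the start in HSPA5, and 194 and 89 bases before it in HSP90B1.
HSPA5, chr9:125241344-125241593, minus strand: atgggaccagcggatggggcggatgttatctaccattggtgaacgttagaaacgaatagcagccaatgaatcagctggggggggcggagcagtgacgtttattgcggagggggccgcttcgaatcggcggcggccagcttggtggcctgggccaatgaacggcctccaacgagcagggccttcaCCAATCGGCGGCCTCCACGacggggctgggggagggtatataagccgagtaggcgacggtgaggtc
HSP90B1, chr12:103930160-103930409, plus strand: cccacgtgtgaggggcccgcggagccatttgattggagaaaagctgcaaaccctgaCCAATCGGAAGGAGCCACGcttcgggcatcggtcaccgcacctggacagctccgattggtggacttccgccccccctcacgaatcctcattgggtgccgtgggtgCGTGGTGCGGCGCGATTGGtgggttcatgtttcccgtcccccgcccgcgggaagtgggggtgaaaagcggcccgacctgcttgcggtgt

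Promoter windows, from 250 bases before to 50 bases after the start, were found for 92 of the 104 member genes and compared with all 27305 RefSeq windows. The pair of heat shock units was present in 13 member windows, 14.1%, against 13.7% of all windows. It was in 4 of the 5 windows of small heat shock proteins (HSPB1, HSPB3, HSPB6 and HSPB8) and in 4 of 11 of HSP70 genes, while none of the windows of proteasome genes held it. A run of 3 such units was in DNAJB6 and DNAJA1 only, against 0.487% of all windows. The ER stress element was in HSPA5 and HSP90B1 and in 0.0806% of all windows, and the MEF2 site was in HSPB7 and HSPB3 and in 0.593% of all windows. The MEF2 match of HSPB3 overlaps a TATA box (TATAAA), and the ER stress element contains a CCAAT box by definition. CCAAT itself, on either strand, was in 37% of member windows and 35.7% of all windows, and in 6 of 10 core and 7 of 14 regulatory windows of the proteasome. The antioxidant response element, TGACNNNGC or on the other strand GCNNNGTCA, was in 20.7% of member windows and 13.6% of all windows, among them 4 of 14 of the regulatory particle and 5 of 8 of the activators, inhibitor and assembly chaperones. A match of letters is a description of the sequence and no evidence that a factor was bound in these cells.

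Across the differentiation the members did not move as 1 group. Proteasome transcripts were all higher in M than in iPSC (6 of 6 listed), then mostly lower in CMes (15 of 16) and CP (31 of 33), and again higher in CMs (24 of 25). Chaperones other than the small heat shock proteins and the myosin chaperones had 9 lower and 13 higher at the first transition, 25 and 9 at the second, 32 and 10 at the third, and 14 and 42 at the last. The small heat shock proteins were all higher in CMs, in 21 of 21 listed transcripts. These came from 6 genes, and most were transcripts of CRYAB and HSPB7. Over every listed transcript of the series, the share higher in the later stage was 46.4%, 55.3%, 51.8% and 54.6% at the 4 transitions, while over listed members it was 65.5%, 21.6%, 22% and 85%. Neighbouring comparisons share the libraries of the stage between them, so a value that turns at a stage appears in both.

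**Figure D1:**
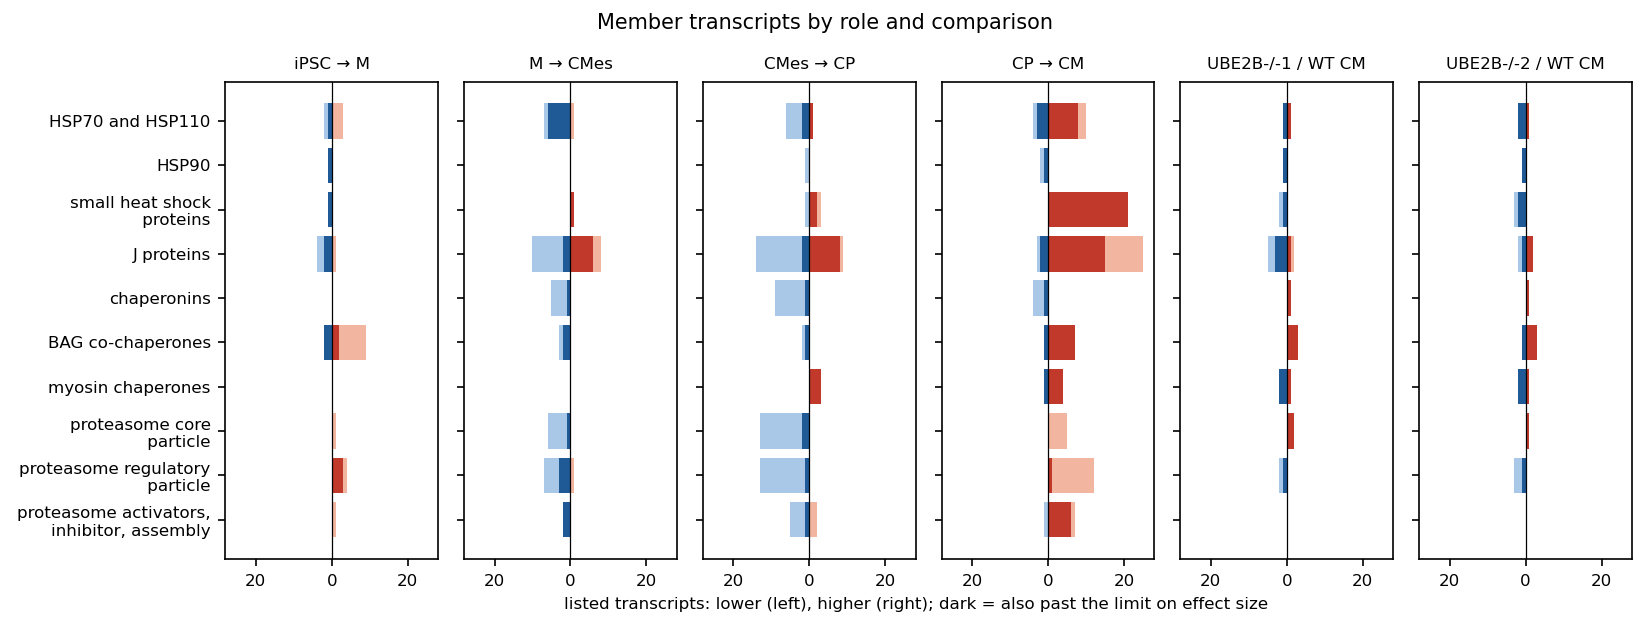
Listed member transcripts by role (rows) in each of the 6 comparisons (panels), with bars to the left counting transcripts lower and bars to the right counting transcripts higher in the later stage or in the UBE2B-/- line, and the dark part of a bar counting those also past the limit on size. Proteasome roles lie to the left at CMes to CP and to the right at CP to CM. The small heat shock proteins have 21 transcripts, from 6 genes, on the right at CP to CM.

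At iPSC to M, 29 member transcripts were listed, 10 lower and 19 higher, where 2.59% of the 68446 transcripts tested were lower and 2.25% were higher. Of these, 7 were called lower and 5 higher, and 2.87% of all transcripts tested were called. How many member transcripts were tested is not known, since only significant ones are listed, so member counts are given as counts and not as shares. The median log2 difference of the listed members was 0.68, against −0.47 over all listed transcripts. The count of transcripts higher includes 6 BAG6 transcripts of alternative haplotype sequences that hold 2 sets of identical values (log2 0.68 and 0.73), so they cannot be read as separate transcripts. Another 2 BAG6 transcripts, likewise not on the primary assembly, were called lower. All 8 BAG6 transcripts listed at this step were thus such copies, so the direction of the gene cannot be read from them. ENST00000442870.5 went from 69.9 estimated counts to 0.00685, the lowest member log2 difference of this step (−7.12), and ENST00000449874.5 from 25.8 to 0.00307.

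Among the co-chaperones, BAG2, which inhibits the HSP70-bound ligase CHIP, had 577 estimated counts in iPSC and 1235 in M, a log2 difference of 1.10 ± 0.13 (SE) with a replicate SD of 0.16. BAG1, the nucleotide exchange factor, was higher in 2 transcripts, the coding one (ENST00000379704.7) going from 382 to 634. HSPA4L, an HSP110 relative, rose from 119 to 205, and a retained-intron transcript of HSPA9, the mitochondrial HSP70, rose from 2892 to 4290 (log2 0.57 ± 0.14). These increases exceeded the replicate spread severalfold for BAG2 and less clearly for BAG1, whose replicate SD was 0.28.

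Other members were lower in M. HSPB8, the small heat shock protein that works with BAG3 in selective autophagy, fell from 158 to 38.3 (log2 −2.03 ± 0.29), the J protein DNAJB5 from 748 to 341 (−1.13 ± 0.16) and HSPA2 (ENST00000394709.2), known from spermatogenesis, from 139 to 53.0 (−1.39 ± 0.31). DNAJB6, a J protein that suppresses aggregation, was lower in 2 coding transcripts, ENST00000429029.6 going from 2183 to 1133 (−0.95 ± 0.12). A transcript of HSP90AA1 annotated for nonsense-mediated decay went from 270 to 117. The 4 J protein genes listed here were thus DNAJB5, DNAJB6, DNAJC13 and DNAJC15, only the last of them higher, from 92.0 to 156 in a transcript with no defined coding sequence.

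All 6 proteasome transcripts listed at this step were higher. PSMD9, an assembly chaperone of the regulatory particle, rose in 2 transcripts annotated for nonsense-mediated decay, the larger from 280 to 715 (1.35 ± 0.16). PSMD7, a lid subunit, likewise rose in a decay transcript, from 148 to 424. Coding transcripts of PSMA1, a core subunit (756 to 1136), PSMC3, a base ATPase (638 to 1129), and PSMG4, a core assembly chaperone (168 to 285), rose as well, with log2 differences of 0.59 ± 0.15, 0.82 ± 0.26 and 0.76 ± 0.19.

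At M to CMes the direction turned for most of these genes. Of 51 listed member transcripts, 40 were lower and 11 higher, in a comparison in which 4.16% of 70285 transcripts tested were lower and 5.15% were higher. The called ones were 17 lower and 7 higher, with 6.46% of all transcripts tested called. The median of the listed members was −0.60, against 0.57 over all listed transcripts. Of the transcripts that were higher in M than in iPSC, 11 from 9 genes (BAG1, BAG2, HSPA4L, HSPA9, PSMA1, PSMC3, PSMD7, PSMD9 and PSMG4) were lower in CMes than in M, and none was higher. The libraries of M enter both comparisons, so a high value there raises both differences.

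BAG2 fell from 1321 to 415 estimated counts (log2 −1.67 ± 0.14, q-value of 9.34e-29), and the replicate SD was 0.18. HSPA9, which pulls proteins into the mitochondrial matrix, fell in all 4 listed transcripts, the coding one (ENST00000297185.9) from 13391 to 6627 (−1.01 ± 0.17). The mitochondrial list fixed for these members held 8 genes, of which 4 were listed here and all 4 were lower. Besides HSPA9, these were the J proteins DNAJA3 (766 to 323 in ENST00000262375.11) and DNAJC19 (421 to 271), and HSPD1, in a minor transcript from 599 to 142 with a replicate SD of 0.87. Of the cytosolic chaperonin, CCT4 (15174 to 10376), CCT5 and CCT8 were lower by 0.40 to 0.55 on the log2 scale.

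Against this trend, 11 transcripts rose. HSPB8 went from 40.9 to 256 (2.63 ± 0.27), so its fall in M was followed by a rise of similar size. DNAJB5 did the same, from 364 to 855 (1.23 ± 0.24). DNAJC6, the auxilin that uncoats clathrin vesicles, rose from 121 to 655 in its main transcript (2.43 ± 0.36), and 2 ER J proteins rose, DNAJB9 from 156 to 315 (1.01 ± 0.19) and DNAJC1 from 386 to 744 (0.95 ± 0.15).

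In the proteasome 15 of 16 listed transcripts fell, by 0.33 to 1.80 on the log2 scale. PSMG4 fell from 305 to 106 (−1.52 ± 0.22) and PSMD9 from 765 to 364 (−1.07 ± 0.16). The single rise was PSMC3, whose transcript ENST00000602866.5 went from 1318 to 2087 (0.66 ± 0.20) while ENST00000619920.4 went from 1207 to 663 (−0.87 ± 0.26). These 2 coding transcripts of 1 gene moved in opposite directions and were close to each other in level in M.

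The third transition, CMes to CP, had the broadest fall. Of 82 listed member transcripts, 64 were lower and 18 higher, where 5.08% of 71328 transcripts tested were lower and 5.46% were higher. Most of the falls were small: only 10 reached the limit on size, while 14 of the rises did, and 6.43% of all transcripts tested were called. The balance of lower and higher members at this step therefore depends on that limit. The median difference of the listed members was −0.50, against 0.40 over all listed transcripts, and the median SE of the members (0.15) was the smallest of the 6 comparisons.

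Proteasome genes fell together. Counting each gene once by its most abundant listed transcript, 24 of 25 listed proteasome genes were lower in CP, all 10 of the core particle and all 11 of the regulatory particle among them. The declines ran from 0.29 (PSMB1, 3269 to 2680 estimated counts) to 1.19 on the log2 scale (PSMC3 ENST00000619920.4, 667 to 291). PSMD14, the deubiquitylase of the lid, fell from 2603 to 1561 (−0.74 ± 0.10, q-value of 1.4e-11). PSMA3 fell from 2335 to 1475 (−0.66 ± 0.10) and PSMB5, which carries the chymotrypsin-like site, from 867 to 449 in ENST00000425762.2 (−0.95 ± 0.17). The nuclear activator PSME3 fell in 3 transcripts, the largest change being from 2636 to 1434 (−0.88 ± 0.12). The exception was PSME1, a subunit of the interferon-induced activator, which rose from 413 to 603 (0.55 ± 0.17) and is counted a second time as a haplotype copy with identical values.

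Chaperonins fell as well. CCT2, CCT3, CCT5, CCT7 and CCT8 were lower in all 7 of their listed transcripts, by 0.35 to 0.63. HSPD1 fell from 22898 to 15021 (−0.61 ± 0.13), and its lid HSPE1 from 3385 to 1560 (−1.12 ± 0.14), the 2 genes lying head to head on chromosome 2. The ER chaperones HSPA5 (24898 to 16927, −0.56 ± 0.15) and HSP90B1 (38593 to 24233, −0.67 ± 0.16) were lower too. HSPH1, the HSP110 exchange factor, fell from 763 to 341 (−1.16 ± 0.24), and DNAJB6 from 3099 to 1557 (−0.99 ± 0.14). The replicate SD of all these transcripts lay between 0.07 and 0.19, below their log2 differences.

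The rises at this step were in fewer genes and were larger. UNC45B, the myosin chaperone of striated muscle, went from 19.9 to 816 estimated counts in its main transcript (5.32 ± 0.49), and a second one (ENST00000268876.9) from 0 to 217, at least 72.3-fold higher against a floor of 3 counts per group mean. HSPB7, the cardiovascular small heat shock protein, was at 0.645 in CMes and at 112 in CP, HSPB8 went from 258 to 779 (1.59 ± 0.26) and HSPB1 from 705 to 1127 (0.68 ± 0.12). Of the J proteins, DNAJB2 rose from 312 to 789 in ENST00000392086.8 (1.34 ± 0.14) and DNAJC6 from 659 to 1728 (1.39 ± 0.16). DNAJC15, of the mitochondrial import motor, rose from 656 to 1494 (1.19 ± 0.13) and DNAJB9 from 317 to 630 (0.99 ± 0.14). HSPA2 (ENST00000394709.2) rose from 85.4 to 258, with a replicate SD of 0.52. Over the same step all 10 listed cardiomyocyte markers were higher, their sum going from 2961 to 19195. Sums also rose for fibroblast and mesenchymal markers (6916 to 80896, 5 of 6 listed genes higher), endoderm and epithelial markers (6022 to 30206, 5 of 6 higher) and smooth muscle markers (447 to 5675, both listed genes higher), while all 6 listed pluripotency markers and all 4 mesoderm markers were lower. The part of these shifts in the member changes was not tested.

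**Figure D2:**
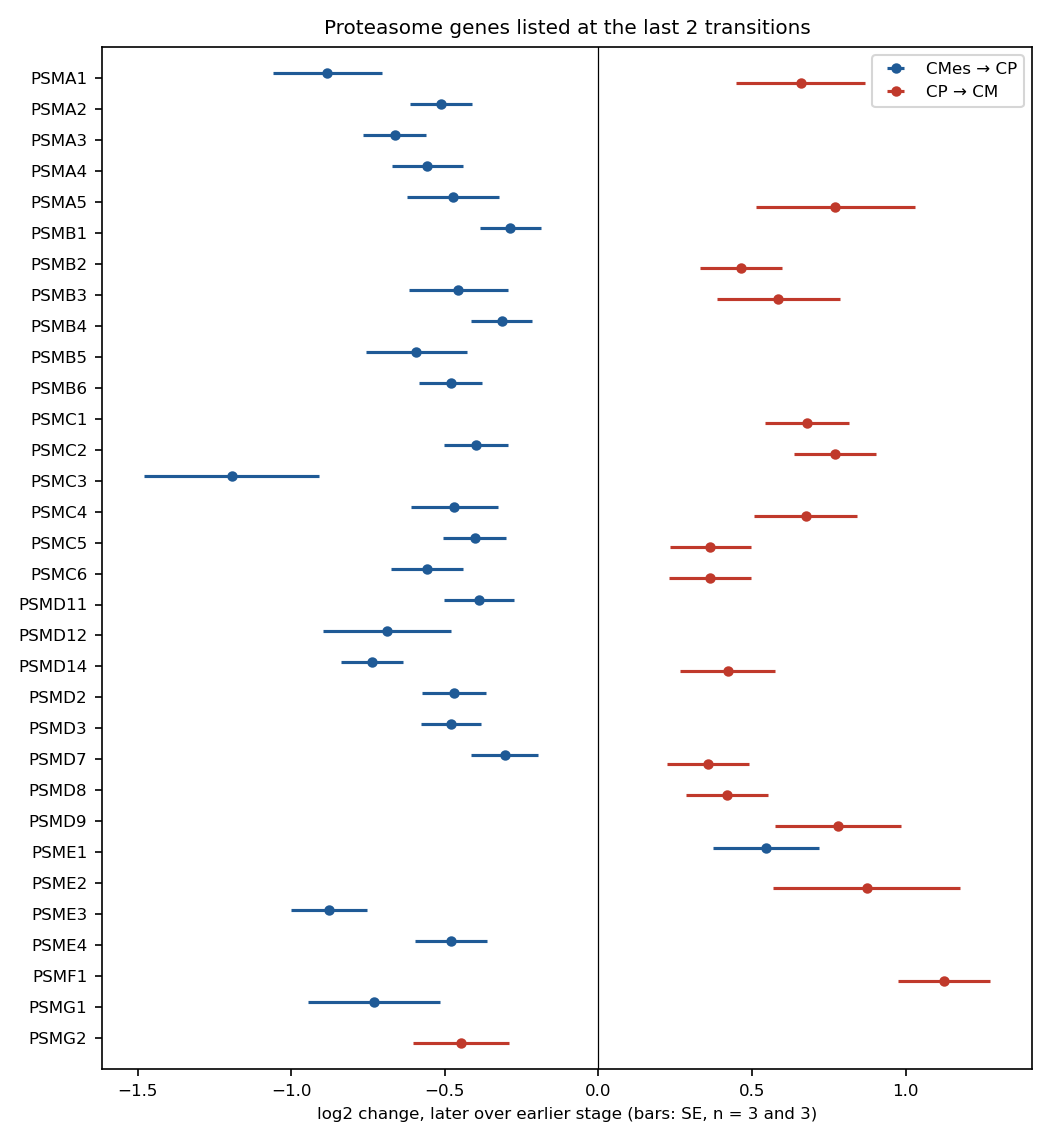
Log2 difference of proteasome genes (points, the most abundant listed transcript of each gene, bars ± 1 SE, 3 libraries per stage) at CMes to CP in blue and at CP to CM in red. All blue points lie below 0 except PSME1, all red points above 0 except PSMG2, and a gene without a point was not listed at that transition.

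At CP to CM, 107 member transcripts were listed, 16 lower and 91 higher, where 8.42% of 69937 transcripts tested were lower and 10.1% were higher. The called ones were 9 lower and 62 higher, with 15.2% of all transcripts tested called. The median of the listed members was 1.10, against 0.63 over all listed transcripts. Of the 10 genes of the muscle-enriched list, 9 were listed and all 9 were called higher, with a median of 3.62. DNAJB6 enters that count through a transcript annotated for nonsense-mediated decay (130 to 279).

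Small heat shock proteins had the largest rises. HSPB7 (chr1:16014028-16019594 on GRCh38, minus strand) went from 98.9 in CP to 37910 estimated counts in CMs in its main transcript ENST00000411503.5, a log2 difference of 8.57 ± 0.24 (SE) with a replicate SD of 0.29 and a q-value of 8.25e-284. HSPB1 (chr7:76302673-76304295, plus strand), an actin-binding small heat shock protein, went from 998 to 13371 (3.74 ± 0.14, q-value of 3.19e-157). HSPB3 (chr5:54455699-54456377, plus strand), a single-exon gene, was at 0 in CP and at 2534 in CMs, at least 845-fold higher against the floor. HSPB8 (690 to 4048, 2.55 ± 0.16) and HSPB6, known for its role in smooth muscle relaxation (38.6 to 196, 2.33 ± 0.46), rose less. The stage means of HSPB1, HSPB7 and HSPB8 lay many replicate SDs apart.

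CRYAB, the lens and muscle alpha-crystallin that binds desmin and titin, was higher in all 10 of its listed transcripts. In ENST00000650687.1 the mean was 0.974 in CP and 1585 in CMs, and in ENST00000527950.5 it was 6.94 and 1015 (7.09 ± 1.95). The replicate SDs of these 2 transcripts were 1.94 and 2.39, far above the typical member SD of 0.23 at this step, while ENST00000526180.6 (9.07 to 358, 5.23 ± 1.30) had one of 0.40. Its overlapping transcripts divide shared reads, so the level of the gene is better known than that of any 1 transcript. Over the 21 listed transcripts of small heat shock proteins, from 6 genes, the median log2 difference was 6.27. It was 4.29 with the 10 transcripts that were under the floor in CP set at their bound.

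Per 1000 bases of transcript, HSPB7 (17815 estimated counts) and HSPB1 (17209) stood highest of the small heat shock proteins in CMs, close to each other, followed by HSPB3 (3731) and HSPB8 (2175). The main UNC45B transcript had 1563 per 1000 bases and HSP90AB1, the constitutive cytosolic HSP90, had 9697. In CP the same scale gave 46.5 for HSPB7, 1285 for HSPB1, 371 for HSPB8 and 18045 for HSP90AB1. HSPB7 was thus among the lower of these chaperones in CP and the highest in CMs.

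**Figure D3:**
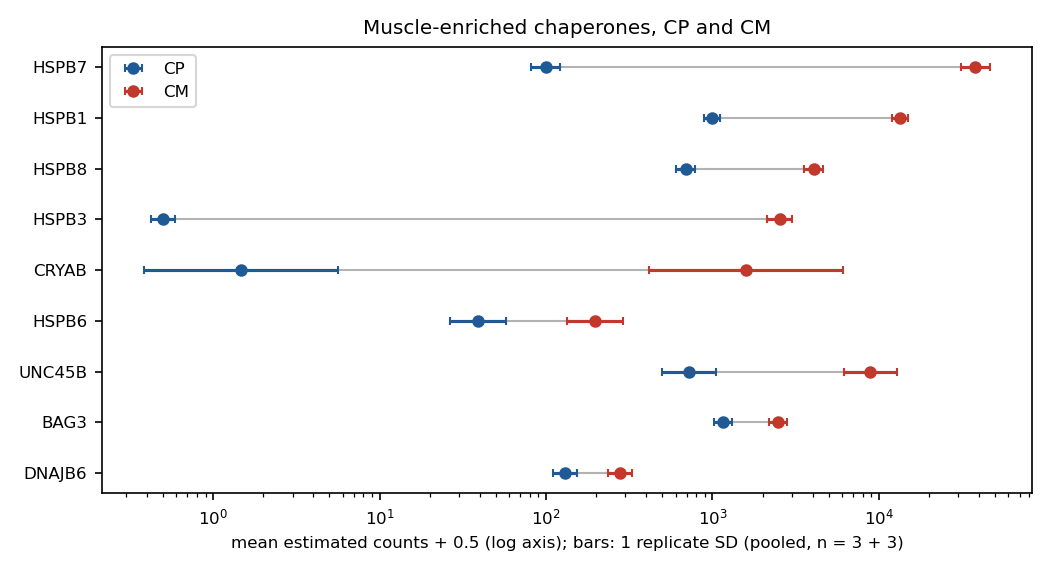
Group means of estimated counts plus 0.5 (log axis; points) in CP (blue) and CM (red) for 9 muscle-enriched chaperones, 1 transcript each, with bars of ± 1 replicate SD pooled over both stages. Every red point lies to the right of its blue point, HSPB7 going from 98.9 to 37910 and HSPB1 from 998 to 13371, and the bars of CRYAB are the widest.

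The 2 myosin chaperones went opposite ways. UNC45B (chr17:35147817-35189345, plus strand) rose in all 3 listed transcripts, from 722 to 8859 in the main one (3.62 ± 0.43) and with log2 differences of 3.73 ± 0.27 and 3.88 ± 0.29 in the others. UNC45A (chr15:90930180-90954093, plus strand) fell from 1367 to 673 in its main transcript (−1.02 ± 0.17, q-value of 1.73e-08), while a minor one (ENST00000394275.6) went from 0 to 21.2. Each difference was several times its replicate SD, which was 0.53 for the main UNC45B transcript and 0.20 for UNC45A.

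Among co-chaperones, BAG3, the partner of HSPB8, rose from 1162 to 2484 (1.10 ± 0.14), BAG1 from 257 to 840 (1.71 ± 0.19) and BAG2 from 194 to 608 (1.65 ± 0.19), and BAG4 fell from 921 to 381 (−1.27 ± 0.17). Of the HSP70 class, HSPA4L rose from 82.1 to 373 (2.18 ± 0.25) and HSPH1 in 4 transcripts, ENST00000630972.2 going from 928 to 1477 (0.67 ± 0.21). The heat-inducible HSPA1A and HSPA1B were higher by 1.05 to 1.84, in transcripts of alternative haplotype sequences that are near-identical to each other, so the counts of the 2 genes cannot be told apart. HSPA2 (ENST00000394709.2) fell from 229 to 92.5 (−1.30 ± 0.34). HSPA4 and HSPA12A were lower too, a HSPA12A transcript with a mean near 0 in CMs having the lowest member log2 difference of this step (−7.22). Both listed HSP90 genes fell, HSP90AB1 from 46104 to 24776 (−0.90 ± 0.28) and HSP90B1 from 21459 to 12587 (−0.77 ± 0.21).

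J proteins were higher in 25 of 28 listed transcripts. DNAJB2, which carries ubiquitin-interacting motifs, rose from 57.6 to 733 in ENST00000336576.9 (3.66 ± 0.35). Its transcript ENST00000392086.8, the more abundant of the 2 in CP, was not listed at this step, so the rise is that of 1 transcript. DNAJC30, a mitochondrial protein, rose from 87.6 to 423 (2.27 ± 0.23), DNAJB4 from 180 to 446 (1.30 ± 0.24), DNAJB5 from 650 to 1525 (1.23 ± 0.18) and DNAJB9 from 558 to 1256 (1.17 ± 0.14). The 3 lower transcripts were 2 of DNAJC15, the main one going from 1323 to 350 (−1.92 ± 0.35), and 1 of DNAJC1 (976 to 660). All 4 listed CCT transcripts were lower, CCT4 from 8111 to 5456 (−0.57 ± 0.16) and CCT8 from 6035 to 4407 (−0.45 ± 0.15) among them.

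Proteasome genes were higher in 24 of 25 listed transcripts, in modest steps, and 7 of the 24 were called. PSMF1, the inhibitor PI31, was higher in 5 transcripts, the main one going from 574 to 1253 (1.12 ± 0.15). All 4 listed core genes and all 9 listed regulatory genes rose, with PSMC2 going from 1111 to 1894 (0.77 ± 0.13), PSMC1 from 1518 to 2429 (0.68 ± 0.14) and PSMB2 from 1229 to 1696 (0.46 ± 0.13). PSMG2, an assembly chaperone, was the only one lower, from 703 to 516 (−0.45 ± 0.16). Of the 21 proteasome partner genes in a separate list, 11 were higher and 2 lower, among them NFE2L1, the transcription factor that drives proteasome genes (3056 to 6450), POMP, the core maturation factor (980 to 1620), and SQSTM1, the autophagy receptor (878 to 2353). Lower in the same list were RAD23B and UBB.

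Across both of the last transitions, 17 transcripts from 15 genes were lower in CP than in CMes and higher in CMs than in CP. These were BAG1, BAG2, DNAJB6, DNAJC7, DNAJC11, DNAJC30, HSPH1 and 8 proteasome genes. Another 8 transcripts (DNAJB4, DNAJB9, HSPB1, HSPB7, HSPB8 and UNC45B) were higher at both steps, and CCT5, CCT8, HSP90B1 and HSPA4 were lower at both. The CP libraries enter both comparisons. Beside the cardiomyocyte and pluripotency markers, those of other cell types also moved from CP to CM. Summed levels went from 42006 to 10356 for fibroblast and mesenchymal markers (5 of 7 listed lower, 2 higher), from 21069 to 1512 for endoderm and epithelial markers (5 of 5 lower), from 4949 to 637 for endothelial markers (2 of 2 lower) and from 7968 to 24342 for smooth muscle markers (4 of 4 higher). Their part in the member changes at this step was not tested.

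Put on 1 scale by the median offset between tables, BAG2 had 577 estimated counts in iPSC, 1235 in M, 388 in CMes, 203 in CP and 637 in CMs. PSMA1 followed the same order of turns with smaller steps, at 756, 1136, 815, 442 and 698. HSPB8 took another course, at 158, 38.3, 239, 724 and 4246, and DNAJB9 rose at each step from 146 in M to 294, 585 and 1318. HSPA2 (ENST00000394709.2) was highest in CP, at 240, and had 139, 53.0, 79.3 and 97.0 in the other stages in order. Its M and CMes means were not listed as different. The course is that of this transcript alone, since ENST00000247207.6, a coding transcript of HSPA2, was listed at no transition. That transcript had 1764 estimated counts in wild-type CMs, on the scale of the UBE2B-/- comparisons.

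**Figure D4:**
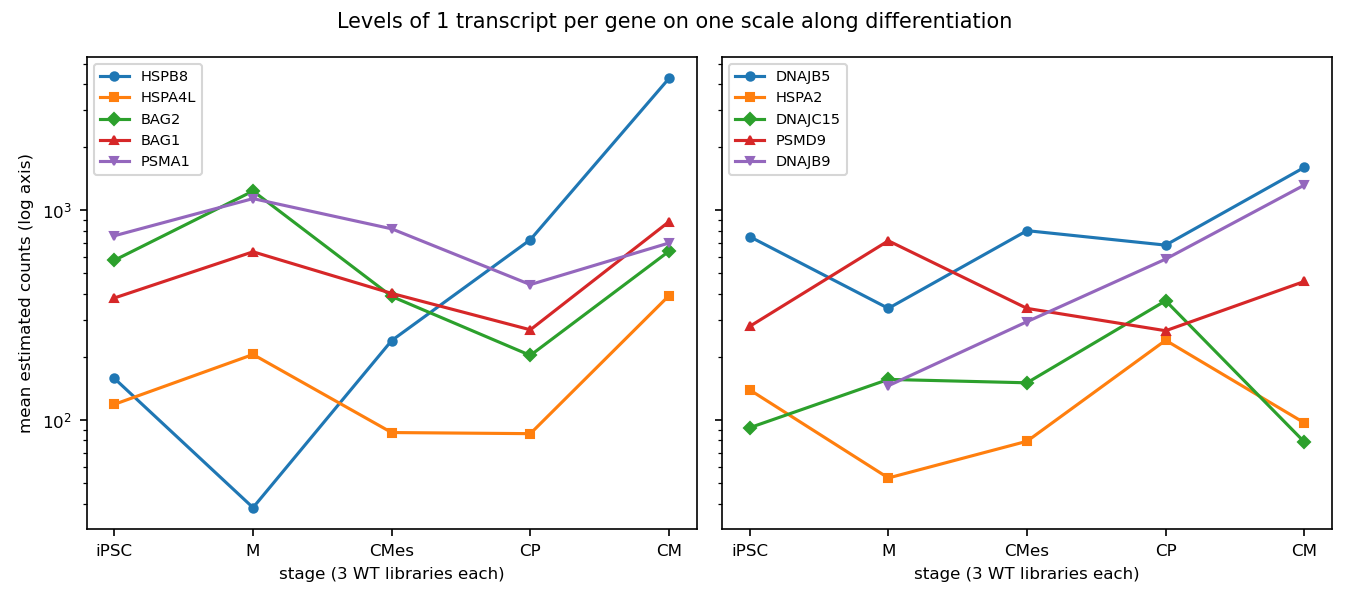
Group means of estimated counts on 1 scale (log axis, 3 libraries per stage) along the 5 stages for 10 members, each line 1 transcript and without error bars. BAG2 and PSMA1 are highest in M and lowest in CP, HSPB8 falls to 38.3 in M and reaches 4246 in CMs, and a line also joins neighbouring stages that were not listed as different.

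In the UBE2B-/- CMs fewer members were listed than at CP to CM. For UBE2B-/-1 there were 23 member transcripts, 13 lower and 10 higher, where 2.19% of the 65457 transcripts tested were lower and 2.53% were higher. For UBE2B-/-2 there were also 23, 14 lower and 9 higher, where 1.88% were lower and 2.9% were higher. Called members were 9 lower and 9 higher in UBE2B-/-1 (3.89% of all transcripts called) and 10 lower and 9 higher in UBE2B-/-2 (3.99%). Both lines were compared with the same 3 wild-type CM libraries, so their differences from wild type are not independent. None of these calls remained with the t distribution after adjustment, by which all 18 and 19 had an unadjusted p below 0.05.

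Listed for both lines were 16 member transcripts from 13 genes, 8 lower in each line and 8 higher in each, where 1.21% of all transcripts tested were lower in both and 1.83% were higher in both. Of these, 5 were called lower and 8 higher in both lines, with 2.43% of all transcripts tested called in both. Among the 8 higher ones, 3 are BAG6 haplotype transcripts with identical values. No difference between the 2 lines was detected: in the test of line 2 against line 1 the smallest unadjusted p-value over these 16 transcripts was 0.257 by Wald test, with an adjusted value of 1.00. The SE of that difference was 0.19 to 0.54 on the log2 scale for all but DNAJC22 (1.32), and the differences themselves were −0.34 to 0.46, so differences of that size between the lines were not detectable. The 16 transcripts were also kept for being listed in both lines against the same wild type, which favours transcripts on which the lines are alike. The test therefore cannot show that the lines agree.

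Of the coding members listed for both lines, UNC45B was the most reduced. Its main transcript had 10223 estimated counts in wild-type CMs, 3821 in UBE2B-/-1 and 3173 in UBE2B-/-2, a mean log2 difference of −1.55 ± 0.26 (SE) with an adjusted value of 4.4e-07, and ENST00000268876.9 had 2955, 919 and 728 (−1.85 ± 0.39). UNC45A went the other way, from 777 in wild type to 1567 and 1641 (1.04 ± 0.17, adjusted value of 1.69e-07), with a replicate SD of 0.20. The pair thus showed in the UBE2B-/- lines the reverse of its CP to CM difference, where UNC45B had risen by 3.62 and UNC45A had fallen by 1.02 on the log2 scale. The wild-type CM libraries are part of both comparisons.

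HSPH1 (ENST00000630972.2) fell from 1704 to 800 and 763 (−1.12 ± 0.20), DNAJC24, needed for diphthamide synthesis, from 671 to 345 and 363 (−0.92 ± 0.20), DNAJB9 from 1449 to 795 and 913 (−0.77 ± 0.17) and HSPB8 from 4671 to 2767 and 2968 (−0.70 ± 0.16). All 4 of these transcripts had risen from CP to CM, by 0.67, 1.09, 1.17 and 2.55 on the log2 scale. The SDs between replicates were 0.29, 0.27, 0.13 and 0.16, all smaller than the differences.

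Higher in both lines were a coding transcript of HSPA2 (ENST00000247207.6), from 1764 to 4281 and 5881 (1.51 ± 0.35), and several transcripts without a coding frame. These were a retained-intron transcript of HSPD1 (113 to 266 and 244), a PSMA7 transcript with no defined coding sequence (106 to 248 and 256) and a retained-intron transcript of DNAJC22, at 0.745 in wild type and 20.4 in each line. Lower in both were likewise a decay transcript of HSP90AA1 (199 to 61.3 and 63.2) and a retained-intron transcript of PSMC1 (922 to 547 and 536). Reads of retained-intron transcripts may come from unspliced RNA. Of the 13 called in both lines, 6 are annotated as protein coding, 4 lower (2 of UNC45B, HSPH1 and DNAJC24) and 2 higher (UNC45A and HSPA2).

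Proteasome transcripts had been 25 of the 12982 listed at CP to CM. For the lines they were 4 of the 3088 listed in UBE2B-/-1 and 4 of the 3134 listed in UBE2B-/-2. Apart from PSMC1 and PSMA7 these were PSMD12 (−1.39 ± 0.42) and a retained-intron PSMA3 in UBE2B-/-1, and PSMC6 (−0.62 ± 0.19) and a retained-intron PSMC3 in UBE2B-/-2. No gene with a CCT name, and none of HSP90AB1, HSPA5, HSP90B1 and BAG3, was listed in either line. TCP1, the CCT subunit whose name falls outside the rule, was listed in a different transcript for each line, lower in UBE2B-/-1 (ENST00000420894.6, −1.74 ± 0.54) and higher in UBE2B-/-2 (ENST00000543532.5, 1.88 ± 0.45).

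**Figure D5:**
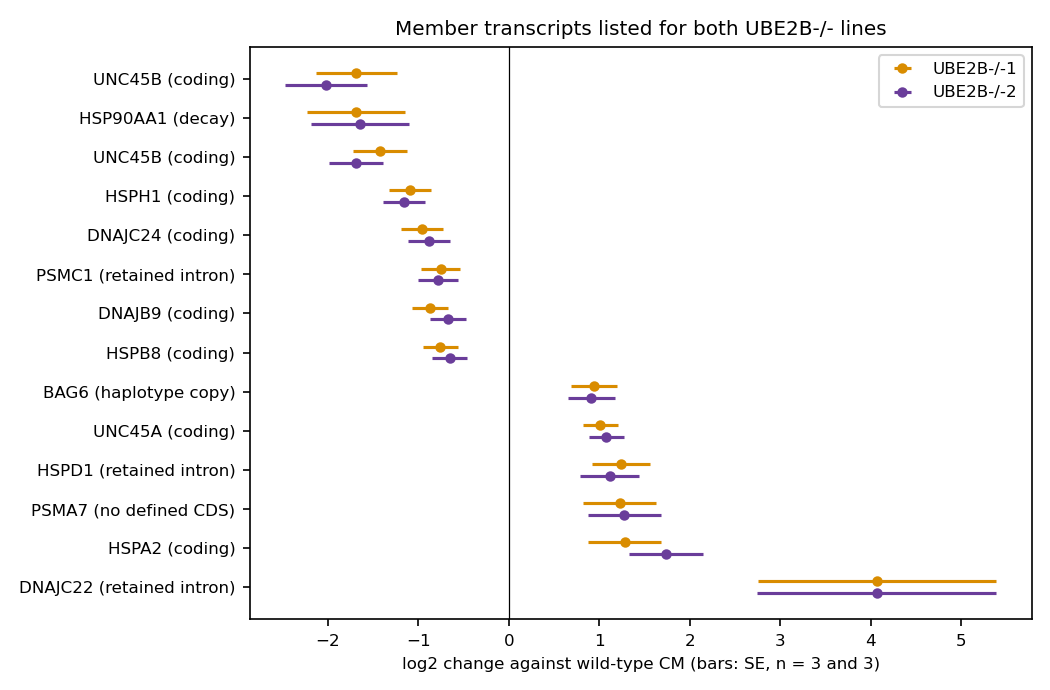
Log2 difference from wild-type CMs (points, bars ± 1 SE) in UBE2B-/-1 and UBE2B-/-2 for the member transcripts listed for both lines, with the 3 identical BAG6 copies drawn once. The 2 points of a transcript lie on the same side of 0 in every row, with UNC45B, HSPH1 and HSPB8 on the lower side and UNC45A and HSPA2 on the higher side.

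Another 14 member transcripts were listed for 1 line only. The variances of the shared fit allow 2 values for the other line. The 1 given is that which matched the wild-type CM mean of the CP to CM comparison. HSPB3 was lower in UBE2B-/-2 (2924 to 607, −2.27 ± 0.69), and its solved difference in UBE2B-/-1 was −1.69. The values not chosen were −0.58 for HSPB3, −0.26 for CRYAB, −0.07 for BAG1, −0.52 for DNAJB4 and −0.77 for HSPB7. For CRYAB ENST00000526180.6 the listed difference was −1.25 ± 0.36 in UBE2B-/-1 and the solved one −0.99 in UBE2B-/-2, and for BAG1 they were −0.94 ± 0.30 in UBE2B-/-2 and −0.88 in UBE2B-/-1. DNAJB4 had −0.84 in UBE2B-/-1 and −0.31 in UBE2B-/-2, and a retained-intron transcript of HSPB7 had −1.24 in UBE2B-/-2 and −0.47 in UBE2B-/-1. Those last 2 differed between the lines with unadjusted p-values of 0.0467 and 0.0226 by Wald test, on transcripts selected for being listed in 1 line. Both p-values rest on the chosen solved values. The main transcripts of HSPB7 and HSPB1 were not listed in either line.

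Markers of cell types moved with these results. Of 16 cardiomyocyte marker genes, 10 were lower in UBE2B-/-1 and 12 in UBE2B-/-2 and none was higher, with medians of −1.66 and −1.92, and the summed level of the 10 genes listed for both lines was 320611 in wild type, 68202 and 65215. Of 8 fibroblast and mesenchymal markers, 3 and 5 were higher and none was lower, and the sum of the 2 listed for both lines was 7399, 84867 and 208832. Of 4 smooth muscle markers 1 was lower in each line, of 6 endothelial markers 1 was higher in UBE2B-/-2, of 7 endoderm and epithelial markers 1 was higher in UBE2B-/-1 and 1 lower in UBE2B-/-2, and none of the pluripotency and mesoderm markers was listed. The part of these shifts in the lower UNC45B, HSPB8, HSPB3 and CRYAB and in the higher UNC45A was not tested.

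Some names and identities limit what can be read from single rows. In GENCODE, HSPA14 transcript ENST00000640019.2 belongs to MSANTD7 and HSPB11 is IFT25, a ciliary protein, although both fit the naming rule. Of the 196 member transcripts, 136 are coding, 15 have a retained intron, 12 are annotated for nonsense-mediated decay, 12 have no defined coding sequence and 21 are not on the primary assembly. Those 21 include copies of BAG6, HSPA1A, HSPA1B, PSMC4, PSME1 and PSME2.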

How the data were processed

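Poly-A RNA-seq tables of 15 wild-type libraries (5 stages, 3 each) and 6 UBE2B-/- CM libraries (2 lines, 3 each) were used. Read trimming (FASTX-Toolkit), quantification of transcripts on hg38 (Kallisto) and the Wald test (Sleuth) were done by the authors. The deposited tables give p-values and q-values, with q-values up to 0.05 only, and the effect, SE and mean on the natural log scale of normalised estimated counts after adding 0.5. Variance columns, treated as scores of squared natural logs, were deposited too. There are 0 per-library columns, so depth is unknown and no count model was fitted.

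From these columns, numbers tested, group means, log2 differences and replicate SDs were recovered with Python 3.11.15, NumPy 2.4.6, pandas 2.3.3 and SciPy 1.17.1, and the recovery was tested on simulated data. A call needed a q-value up to 0.05 and an absolute natural-log effect of at least 0.585. For transcripts listed for both lines, the mean of the lines took 0.866 times the SE of 1 line, and Benjamini-Hochberg adjustment covered every transcript tested for the mean and the 1992 listed for both lines for the difference. Transcripts were joined to GENCODE 44, and promoters came from RefSeq. Where several transcripts of 1 gene were listed, counts of genes took the most abundant. Named genes followed the rule of roles and largest effects, with further members named after their values were seen. Some genes that the rule required were left without values, among them DNAJA4 and PSMB10 at M to CMes and CCT6A at CP to CM. Members and lists were chosen with earlier results of these data known. Alternatives were other limits on effect and q-value, a t distribution, coding transcripts only, a level filter and identical copies counted once.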

Additional observations from a re-analysis of the deposited data

How the results depend on the processing

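Counts of called members were 12, 24, 24 and 71 at the 4 transitions in order, 18 and 19 in UBE2B-/-1 and UBE2B-/-2 and 13 in both lines. With a limit of 1.5-fold on the natural-log scale they were 24 at iPSC to M and 43 at CMes to CP, and with no limit they were 29, 51, 82 and 107 at the transitions. Without a limit CMes to CP split into 64 lower and 18 higher, against 10 and 14 with it. A q-value limit of 0.01 left 7, 8 and 5 in the lines and in both. With a t distribution on 4 or 6 residual degrees of freedom they were 0, 0, 0 and 6 at the transitions and 0 in each line and in both, although 12, 24, 24, 67, 18 and 19 of the calls had an unadjusted p below 0.05 by that test. Protein-coding transcripts alone gave 5 at iPSC to M, 9 and 8 in the lines and 6 in both. A mean of at least 50 estimated counts, or identical copies counted once (chosen after seeing the data), kept each of the 7 counts within 1.5 times. The named effects of both lines had the same sign in each line. So had all 1992 transcripts listed for both lines, from which they were taken, so this is no check of them.

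No paired analysis was possible because the tables hold no value per library. Leaving out a replicate was not possible either.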

Other observations

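Genes of ER folding and the unfolded protein response that are not members were listed mostly as higher in the UBE2B-/- CMs. Of the 18 genes in that list, 9 were higher and 1 lower in UBE2B-/-1, and 10 were higher and none lower in UBE2B-/-2. Of all transcripts tested, 2.53% and 2.9% were higher in the lines. A gene counts here when any of its transcripts was listed, so its chance of counting exceeds that of a single transcript. The gene counts and the transcript shares are therefore unlike units. In the same libraries the summed level of the 2 fibroblast and mesenchymal markers listed for both lines was 7399 in wild type, 84867 and 208832, and their part in this result was not tested. PDIA4, a protein disulfide isomerase, had log2 differences of 1.07 ± 0.20 (SE) in each line, EIF2AK3, the ER stress kinase PERK, 1.28 ± 0.39 and 1.51 ± 0.39, and HYOU1, an HSP110 relative of the ER lumen, 0.82 ± 0.23 and 0.83 ± 0.23. MANF, a secreted ER stress protein, had 0.82 ± 0.20 and 0.79 ± 0.20. The lower one was a HERPUD1 transcript in UBE2B-/-1 (−2.86 ± 0.89). Among members of the same compartment, the coding DNAJB9 transcript was lower in both lines and a retained-intron one was higher in UBE2B-/-2 (4.34 ± 1.35). DNAJC1 was higher in UBE2B-/-1 (0.78 ± 0.24), with 0.71 chosen over 0.07 as the solved value for UBE2B-/-2. HSPA5 and HSP90B1, whose promoters hold the ER stress element, were listed in neither line. At CP to CM 5 genes of the list were lower and 1 was higher, PDIA4 going from 5084 to 2551 estimated counts and SIL1, the exchange factor of HSPA5, from 169 to 407.

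Partners of HSP70 and HSP90 (17 genes, with the heat shock factors) had 8 listed genes at CMes to CP, all lower, with a median log2 difference of −0.53. Only 2 of them were called. Of all transcripts tested at that step, 5.08% were lower and 5.46% were higher. At CP to CM 6 were higher and 3 lower, where 10.1% of all transcripts tested were higher and 8.42% were lower. In UBE2B-/-1 3 were lower, where 2.19% of all transcripts tested were lower, and in UBE2B-/-2 none was listed. Gene counts and transcript shares are unlike units here too. Different transcripts stand for some genes at successive steps, some of them minor, such as PPID at CP to CM (3.02 to 27.6 estimated counts).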
